A study of Mus musculus with 4 samples.

Results

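Type 1 and natural killer (NK) genes were followed in RNA of group 2 innate lymphoid cells (ILC2s) from the colon. The 10 genes were taken by symbol from the 27179 gene rows of the count table, and a row was found for all 10. They comprise the receptor genes Klrg1, Klrk1 and Ncr1, the transcription factor genes Tbx21 and Eomes, the cytokine gene Ifng and the cytotoxic granule genes Gzma, Gzmb, Prf1 and Nkg7. The cells were sorted from C57BL/6J mice, 2 fed a control diet and 2 fed a high-fiber diet, and each library came from 1 mouse. The labels name no allele or agent besides the diet, and they give no age, no sort gates, no cell numbers, no kind of fiber and no length of feeding.

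Innate lymphoid cells lack antigen receptors and are sorted into types by the factors that drive them. ILC2s rest on GATA3 and release type 2 cytokines, whereas ILC1s and NK cells rest on T-bet (Tbx21), joined in NK cells by Eomesodermin (Eomes), and release interferon gamma (Ifng). NK cells also kill target cells with granules that hold perforin and granzymes. KLRG1 is an inhibitory lectin receptor that binds cadherins. It is found on mature NK and T cells and on many ILC2s, and is often used to gate ILC2s. The labels do not say whether it was part of this sort, so its presence is a description and no finding.

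Library totals were 20253987 to 30406730 counts, and 12685 to 13399 genes per library had a count. High-fiber mouse 2 lay at 70.4 on a first principal component that held 47.0% of the variance, while the other 3 libraries lay between -37.0 and -5.95. ILC2 markers were present. Of 15 listed, 14 reached at least 1 CPM (counts scaled to a common library size with TMM factors) in every library, and only Ptgdr2 had 0 counts in all 4. Whether the counting lost reads of Ptgdr2 was not tested, and the same holds for other genes at 0. Icos and Arg1 were at 835 to 1707 and 727 to 986 CPM. Of the 10 genes listed as defining NK cells, 0 reached 1 CPM in every library, and Eomes, Klra8 and S1pr5 had 0 counts in all 4. The summed level of the 10 NK genes was 30.03 and 24.3 CPM in the control mice and 25.2 and 0.540 CPM in the high-fiber mice. Prf1 made up most of it in the 3 libraries that held a Prf1 count. In bulk RNA, fewer cells of a type and less RNA per cell cannot be told apart.

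Promoter sequence is shown for 3 members that stand for the patterns described next: Nkg7 and Klrk1, which were abundant in every library, and Ncr1, which was found in 2 of the 4. Each is the 250 bases before the first RefSeq start site listed for the gene (GRCm38.p6), on the strand of the gene, and capitals mark a match to a motif. Nkg7 lies at chr7:43436888-43437137 on the plus strand, Klrk1 at chr6:129623865-129624114 on the minus strand and Ncr1 at chr7:4337465-4337714 on the plus strand. The outer limits of Klrk1 are 129610323 to 129623903, so the last bases of its window lie within the gene.
Nkg7: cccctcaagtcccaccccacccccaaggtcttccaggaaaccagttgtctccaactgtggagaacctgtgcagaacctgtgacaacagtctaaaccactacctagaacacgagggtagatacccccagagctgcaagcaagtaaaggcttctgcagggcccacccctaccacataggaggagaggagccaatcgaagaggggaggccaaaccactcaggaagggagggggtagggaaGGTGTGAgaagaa
Klrk1: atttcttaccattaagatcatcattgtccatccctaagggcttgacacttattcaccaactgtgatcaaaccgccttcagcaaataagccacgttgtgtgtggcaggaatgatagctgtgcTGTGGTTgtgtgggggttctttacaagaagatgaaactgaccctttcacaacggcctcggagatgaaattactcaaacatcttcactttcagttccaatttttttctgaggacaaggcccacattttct
Ncr1: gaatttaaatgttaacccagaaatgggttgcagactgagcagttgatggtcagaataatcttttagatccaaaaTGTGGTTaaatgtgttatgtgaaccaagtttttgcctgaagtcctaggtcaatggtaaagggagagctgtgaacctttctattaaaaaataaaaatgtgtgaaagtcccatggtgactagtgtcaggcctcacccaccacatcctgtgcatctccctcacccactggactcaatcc
Motifs were searched on both strands, and their matches did not overlap in these windows. The core of T-box sites was searched as GGTGTGA. Of the 9 members with a promoter entry, which were all but Klrg1, Nkg7 held these letters, 13 bases before its start site, where 3.33% of 32851 promoter entries of this length hold them. A RUNX site was searched as TGTGGTT, and these letters stood in 4 members (Gzma, Gzmb, Klrk1 and Ncr1), against 4.40% of all entries. A GATA site was searched as AGATAA, and these letters stood in 0 members, against 9.99% of all entries. A member was counted when any of its entries held the letters, whereas each percentage is a share of single entries. The member counts and percentages are thus unlike measures, and the matches describe letters only. Of the 4 members with the RUNX letters, Klrk1 was abundant while Gzma, Gzmb and Ncr1 were at or near 0 in some libraries.

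Klrg1, Nkg7, Klrk1 and Ifng were expressed in every library of the ILC2 sorts. These 4 of 10 members had at least 1 CPM in all 4 libraries. Prf1 was present in 3 libraries, Tbx21 in 3, Ncr1 in 2 and Gzmb in 2 at more than the 3 counts that a count of 0 allows. Gzma, the granzyme of resting NK cells, had 2, 0, 3 and 0 counts in control mice 1 and 2 and high-fiber mice 1 and 2. Eomes, the second T-box factor of NK cells, had 0 counts in all 4, which allows up to 0.0993 to 0.147 CPM per library. On the opposite strand, 118 exon bases of Eomes are shared with the transcript Gm33460.

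Levels of different genes were compared as CPM per kilobase of exon. The order by mean over the 4 libraries was Klrg1 (1029), Nkg7 (852), Klrk1 (77.0), Ifng (12.5), Prf1 (5.83), Gzmb (2.05), Tbx21 (2.02), Ncr1 (2.00) and Gzma (0.0423 CPM per kilobase). The ranges of Klrg1 (847 to 1117) and Nkg7 (615 to 1060) overlapped, although Klrg1 was the higher within each library. The ratio of Nkg7 to Klrg1 was 0.694 and 0.885 in control mice 1 and 2 and 0.726 and 0.981 in high-fiber mice 1 and 2. Nkg7 and Klrk1 (61.1 to 98.2) did not overlap, nor did Klrk1 and Ifng (6.22 to 21.3). Each neighbouring pair from Ifng down to Gzma overlapped. Among the 13349 genes with a count in any library and an exon length, Klrg1 lay at the 99.5 to 99.7 percentile in each library and Nkg7 at the 99.4 to 99.6 percentile.

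**Figure D1:**
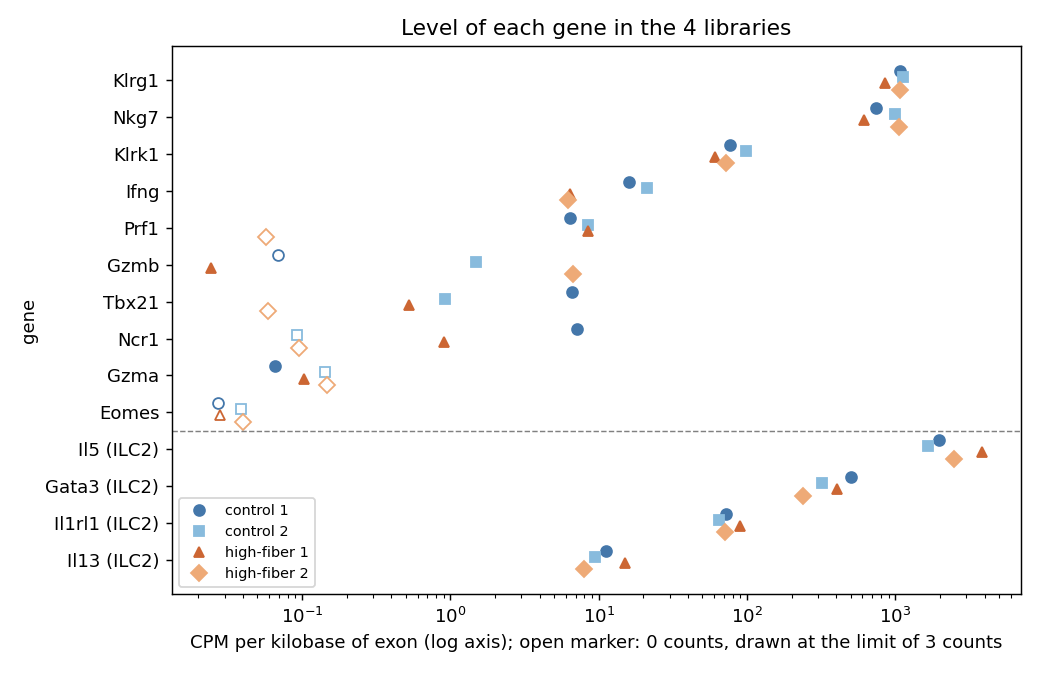
Each marker is 1 library, and the x axis gives CPM per kilobase of exon on a log scale for the 10 members and, below the dashed line, 4 ILC2 genes. Open markers are libraries with 0 counts, drawn at the level of 3 counts. Klrg1 and Nkg7 lie between 615 and 1117 in every library, while Tbx21, Ncr1, Gzmb and Prf1 spread from 0 or near 0 to between 6.63 and 8.50.

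Klrg1 (NCBI gene 50928, chromosome 6 from 122270596 to 122282833 in GRCm38) was at 1515 and 1580 CPM in control mice 1 and 2, against 1197 and 1528 CPM in high-fiber mice 1 and 2. The groups overlapped, because high-fiber mouse 2 lay between the control mice. The mean was 1547 ± 45.6 CPM in controls and 1363 ± 234 CPM with high fiber (SD, n = 2 each), a log2 fold change of -0.18 ± 0.22 (SE) that edgeR's quasi-likelihood test did not call (adjusted p = 0.886). Here and below, p-values are adjusted by Benjamini-Hochberg over all genes tested, and a gene is called when that value is under 0.05. Without high-fiber mouse 1 the value was 0.0083, and without high-fiber mouse 2 it was -0.37. Of the cadherin genes whose proteins KLRG1 binds, Cdh1 and Cdh4 had 0 counts in all 4 libraries. Cdh2 had 1, 80, 74 and 0 counts in control mice 1 and 2 and high-fiber mice 1 and 2. Of 10 epithelial genes, Epcam was at 25.1 to 36.9 CPM, 6 had 0 counts in all 4 libraries (Cdh1, Krt8, Krt20, Vil1, Muc2 and Car1), and 3 had counts in 1 library each: Krt18 (35) and Fabp2 (9) in high-fiber mouse 1 and Krt19 (8) in high-fiber mouse 2.

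Klrk1 (NCBI gene 27007, chromosome 6 from 129610323 to 129623903) encodes NKG2D, an activating receptor for stress-induced ligands. It was at 262 and 337 CPM in control mice 1 and 2, against 210 and 248 CPM in high-fiber mice 1 and 2. Both high-fiber mice were below both control mice, though the distance from 262 to 248 CPM was smaller than the spread within either diet. The log2 fold change was -0.39 ± 0.23 and was not called (299.5 ± 53.4 and 229 ± 26.9 CPM, SD, n = 2 each; edgeR adjusted p = 0.726). It was -0.20 without control mouse 2 and -0.24 without high-fiber mouse 1. Hcst, which encodes the adaptor DAP10 through which NKG2D signals, was present in every library. It was at 129 and 142 CPM in controls and 174 and 164 CPM with high fiber (0.32 ± 0.22, edgeR adjusted p = 0.761). Per kilobase, the ratio of Klrk1 to Hcst was 0.260 and 0.306 in the control mice and 0.155 and 0.195 in the high-fiber mice. That ratio is free of the scaling between libraries, and its groups did not overlap. It was formed after the values were seen and was not tested.

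Nkg7 (NCBI gene 72310, chromosome 7 from 43437138 to 43438246) encodes a membrane protein of cytotoxic granules. It was at 655 and 871 CPM in control mice 1 and 2, against 542 and 934 CPM in high-fiber mice 1 and 2. The highest and the lowest library were both from the high-fiber diet, so the groups overlapped. The means were 763 ± 152 and 738 ± 277 CPM (SD, n = 2 each), with a log2 fold change of -0.050 ± 0.31 (edgeR adjusted p = 0.983). The sign of Nkg7 turned without control mouse 2 (0.17) or without high-fiber mouse 1 (0.32).

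Ncr1 (NCBI gene 17086, chromosome 7 from 4337715 to 4345184) encodes NKp46, a receptor that marks NK cells, ILC1s and part of the ILC3s. It had 330 and 0 counts in control mice 1 and 2 and 40 and 0 counts in high-fiber mice 1 and 2. These are 10.9 and 1.39 CPM where it was found. Each 0 allows up to 0.143 CPM in control mouse 2 and 0.147 CPM in high-fiber mouse 2. The log2 fold change of -2.93 ± 1.62 was not called (5.46 ± 7.73 and 0.693 ± 0.980 CPM, SD, n = 2 each; edgeR adjusted p = 0.684), and the spread within each diet exceeded the means. Its direction depended on control mouse 1, since without it the control group holds 0 counts.

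Tbx21 (NCBI gene 57765, chromosome 11 from 97098007 to 97115331) encodes T-bet, the factor that drives Ifng in type 1 cells. It had 498 and 48 counts in control mice 1 and 2 and 38 and 0 counts in high-fiber mice 1 and 2. In CPM these are 16.5, 2.29, 1.32 and 0, so control mouse 1 stood far above the other 3, and both high-fiber mice were below both controls. The log2 fold change was -3.72 ± 1.38 (9.39 ± 10.04 and 0.658 ± 0.931 CPM, SD, n = 2 each), with an edgeR adjusted p = 0.493 and an unadjusted p = 0.0282. Without control mouse 1 the log2 fold change was -1.57 (unadjusted p = 0.362). Without high-fiber mouse 2 it was -2.96 (unadjusted p = 0.130), and without control mouse 2 it was -4.43 (unadjusted p = 0.00655). Without high-fiber mouse 1 that diet holds 0 counts (unadjusted p = 0.0785).

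Gata3, the factor of ILC2s, exceeded Tbx21 in every library. Per kilobase the ratio of Gata3 to Tbx21 was 75.8 in control mouse 1, 347 in control mouse 2 and 762 in high-fiber mouse 1, and high-fiber mouse 2 had no Tbx21 count. Control mouse 1 was thus the library with most Tbx21 relative to Gata3, and also held most Ncr1. Further genes of NK cells and ILC1s were looked up there after those values were seen. Klri2, an NK lectin receptor, had 70, 1, 25 and 0 counts in control mice 1 and 2 and high-fiber mice 1 and 2. Itga1, the CD49a integrin chain of ILC1s, had 42, 0, 18 and 0 counts. Both put the libraries in nearly the order of Ncr1. Other surface and homing genes of these cells were divided. Itgae had 52, 0, 45 and 2 counts. In contrast, Itga2 (0, 99, 453 and 68), Cxcr3 (0, 33, 1 and 0) and Cx3cr1 (0, 98, 1 and 25) had 0 counts in control mouse 1. Klrb1c, the NK1.1 receptor gene, had another order, with 0, 39, 0 and 1 counts, and Klrd1, which encodes CD94, had 20 counts in high-fiber mouse 1 and 0 in the other 3. Klre1, another NK lectin receptor gene, had 3, 13, 5 and 10 counts.

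Ifng (NCBI gene 15978, chromosome 10 from 118441046 to 118445894) was lower in both high-fiber mice than in either control. It had 581 and 540 counts in control mice 1 and 2 and 222 and 153 counts in high-fiber mice 1 and 2. In CPM these are 19.2, 25.7, 7.69 and 7.51, so the high-fiber mice lay close together and well under either control. The log2 fold change was -1.55 ± 0.50 (22.5 ± 4.59 and 7.60 ± 0.128 CPM, SD, n = 2 each), but edgeR did not call it (adjusted p = 0.456, unadjusted p = 0.0183), nor did the other tests run on the same counts, DESeq2 (adjusted p = 0.155) and limma-voom (adjusted p = 0.716). It was negative in 14 of 14 alternative fits, between -1.76 and -1.34, and called in 0 of them. All of these fits reuse the same libraries. Of the fits on all 4 libraries, those with limma-voom, legacy=TRUE, the replicate block or no filter on low counts called 0 of all genes. The transcript Gm49751 shares 249 exon bases with Ifng on the same strand.

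Markers of T cells, which also make Ifng, were read beside it. Their summed level over 14 genes was 1010 and 1127 CPM in the control and 984 and 1059 CPM in the high-fiber mice. Most of it came from Trbc1 (580 and 638 CPM in controls, 460 and 525 CPM with high fiber) and Trbc2 (170 to 227 CPM). Trac was at 4.16 to 14.9 CPM and Cd3d at 1.42 to 4.51 CPM, both with overlapping groups. Of the 10 tested T cell markers 3 were positive and 7 negative. Cd8a, Cd8b1 and Cd5 had 0 counts in all 4. Themis, a T cell signalling protein, was at 12.0 and 15.9 CPM in controls and 1.801 and 2.11 CPM with high fiber (-2.83 ± 0.71, edgeR adjusted p = 0.447, DESeq2 adjusted p = 0.0099). It was the 1 T cell marker that DESeq2 called. Cd3e was at 5.79, 13.2, 1.21 and 5.30 CPM, and Ubash3a at 47.5 to 67.5 CPM with overlapping groups. Cd3g had the opposite order, at 143 and 171 CPM in controls and 244 and 289 CPM with high fiber. B and plasma cell genes stood apart by diet too, with 5 of 6 tested markers higher in both high-fiber mice than in either control (18.5% of all tested genes had that order), among them Igkc at 37.4 and 4.15 against 112 and 458 CPM. The part of either cell type in the Ifng result was not tested.

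**Figure D2:**
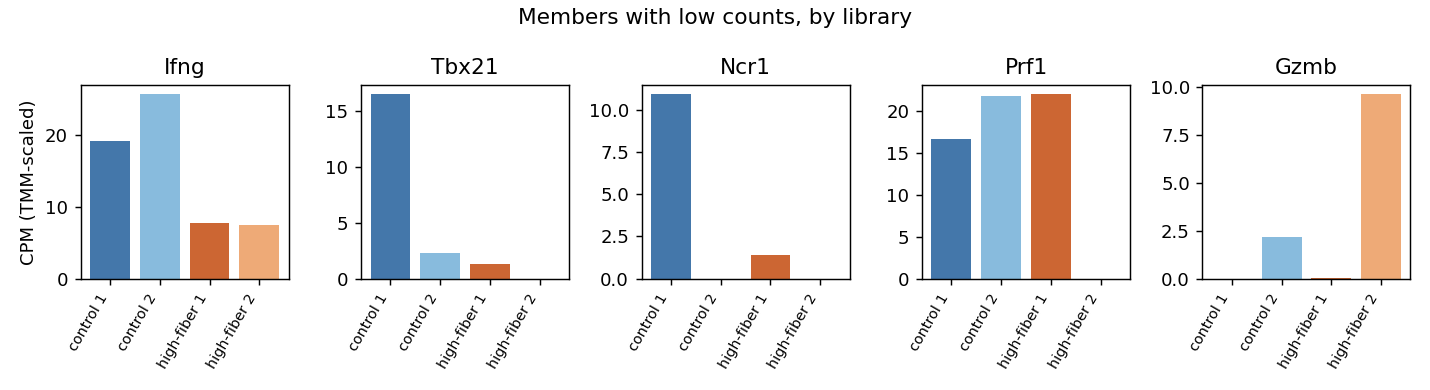
Bars give the CPM of 1 library each for the 5 members with low counts, with each panel on its own axis from 0. Ifng is lower in both high-fiber mice (7.69 and 7.51) than in either control (19.2 and 25.7), Tbx21 and Ncr1 are highest in control mouse 1, Prf1 is missing from high-fiber mouse 2, and Gzmb is highest there.

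Prf1 (NCBI gene 18646, chromosome 10 from 61297751 to 61304684) encodes perforin, which opens pores in the target cell. It had 502 and 456 counts in control mice 1 and 2, 634 counts in high-fiber mouse 1 and 0 counts in high-fiber mouse 2. The 3 libraries with counts lay close together at 16.6, 21.7 and 21.96 CPM. High-fiber mouse 2 was at least 113-fold lower than the lowest of them, set against 3 counts. The diet difference rested on that library: the log2 fold change of -0.64 ± 0.97 (19.2 ± 3.61 and 10.98 ± 15.5 CPM, SD, n = 2 each; edgeR adjusted p = 0.911) became 0.21 without it.

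Gzmb (NCBI gene 14939, chromosome 14 from 56258836 to 56262334) encodes granzyme B, a protease that starts cell death once perforin has let it in. It had 0 and 45 counts in control mice 1 and 2 and 1 and 196 counts in high-fiber mice 1 and 2. In CPM these are 0, 2.14, 0.0346 and 9.62. The library with most Gzmb was the one with no Prf1 count, and control mouse 1, with most Tbx21, had no Gzmb count. The log2 fold change of 2.22 ± 1.81 was not called (1.07 ± 1.52 and 4.83 ± 6.78 CPM, SD, n = 2 each; edgeR adjusted p = 0.802), and its sign turned without high-fiber mouse 2 (-4.51, with 1 count left in that group). Gzma (NCBI gene 14938, chromosome 13 from 113093824 to 113100981) and Eomes (NCBI gene 13813, chromosome 9 from 118478186 to 118486132) were too low to enter the test. Gzmb has close paralogs, Gzmc to Gzmg, with which the counting could share reads, and each of them had 0 counts in all 4 libraries.

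Of the 8 members that passed the filter on low counts, 0 were called at a Benjamini-Hochberg adjusted p under 0.05 in edgeR's quasi-likelihood test, where 0.0338% of the 11841 tested genes were called. At an unadjusted p under 0.05, 2 members were lower (Ifng and Tbx21) and 0 higher, where 4.1% of all tested genes were lower. DESeq2 and limma-voom called 0 of the 8 each. Over all genes DESeq2 called 1.84% of the 12733 with an adjusted p, and limma-voom called 0. For 3 members (Ifng, Tbx21 and Klrk1) both high-fiber mice were below both controls, where 19.6% of tested genes had that order. The log2 fold changes were negative for 7 and positive for 1, with a median of -0.52, beside a median of -0.016 over all genes tested.

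**Figure D3:**
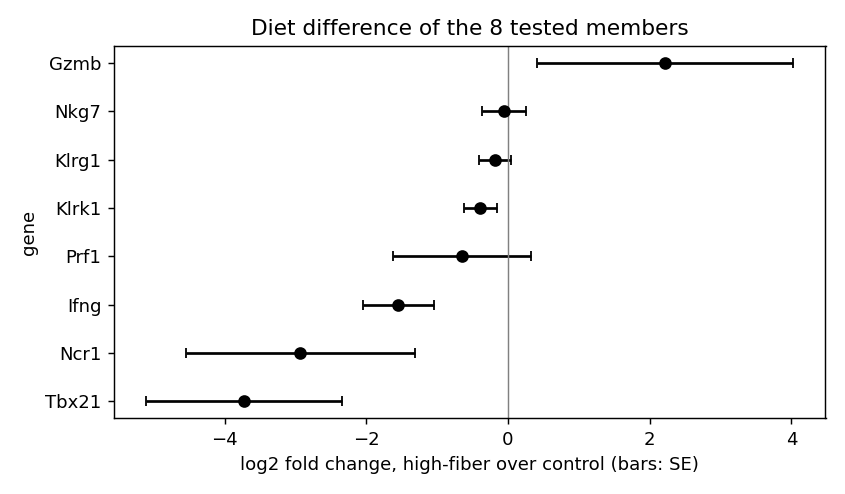
Points are log2 fold changes (high-fiber over control) of the 8 tested members from edgeR, and bars are standard errors. Ifng and Tbx21 lie furthest below 0 relative to their bars (-1.55 ± 0.50 and -3.72 ± 1.38), and Klrg1 and Nkg7 lie within 1 bar of 0.

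Genes around these members were read from 9 lists of 116 measured genes, of which 80 entered the test. edgeR called 0 of the 80. An unadjusted p under 0.05 was reached by 11 higher genes (4.7% of all tested genes were such) and by 6 lower genes (4.1%). limma-voom called 0. DESeq2 called 4 of 87 with an adjusted p, where it called 1.84% of all 12733 such genes: Jak2, Stat4 and Zeb2 were higher and Fasl lower on the high-fiber diet. These 4 were named after their values were seen.

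Receptors and signal carriers of type 1 cytokines were mostly present. The list includes Ifngr1 and Ifngr2, which encode the receptor for interferon gamma itself. Of 15 measured, 14 had at least 1 CPM in every library, and the exception was Il12rb2, the signalling chain of the IL-12 receptor, with 14, 3, 0 and 0 counts in control mice 1 and 2 and high-fiber mice 1 and 2. Il12rb1, the shared chain, was at 61.0 and 31.3 CPM in controls and 39.2 and 10.4 CPM with high fiber. The IL-18 receptor chains were present in all libraries, Il18r1 at 14.0 to 21.4 CPM and Il18rap at 48.8 to 70.5 CPM. Stat4, the factor that carries the IL-12 signal, was at 393 and 374 CPM in controls and 610 and 671 CPM with high fiber. Its log2 fold change was 0.74 ± 0.20 (edgeR adjusted p = 0.447, DESeq2 adjusted p = 0.0330). Jak2, a kinase of the same receptor, was at 289 and 194 CPM in controls and 511 and 499.5 CPM with high fiber (1.06 ± 0.25, edgeR adjusted p = 0.447, DESeq2 adjusted p = 0.010). For both genes the groups did not overlap and the order was opposite to that of Ifng and Tbx21. The most abundant genes of the list per kilobase were Il2rg, Ifngr1 and Stat4. Of 14 tested genes 7 were positive and 7 negative, with a median of 0.0064.

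Of 11 transcription factors shared by NK cells, ILC1s and other lymphocytes, 10 had at least 1 CPM in every library, and the exception was Irf8, with 1 count in control mouse 1 and at most 7.72 CPM. Id2, needed by all innate lymphoid cells, was at 3509 to 5074 CPM, and Ets1 and Ikzf3 at 971 to 1569 and 639 to 1166 CPM. Of 11 tested genes 10 were positive and 1 negative (median 0.45), with 0 called by edgeR. Zeb2, which acts in late NK cell maturation, was at 7.65 and 14.4 CPM in controls and 32.9 and 48.6 CPM with high fiber (1.92 ± 0.48, edgeR adjusted p = 0.447, DESeq2 adjusted p = 0.0286). It is also expressed by macrophages, whose 9 markers summed to 146 and 293 CPM in the control and 328 and 368 CPM in the high-fiber mice. Of these, Apoe was at 85.2 and 154 CPM in controls and 202 and 192 CPM with high fiber, while the groups overlapped for Lyz2 and C1qc. Their part in the Zeb2 value was not tested.

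Most other NK receptor genes had few or no counts. Of 24 measured, 8 had 0 counts in all 4 libraries, among them 6 of 6 Klra (Ly49) genes, whose near-identical copies may lose reads in counting, and 5 had at least 1 CPM in every library. Klrb1b was the most abundant of the 5 listed Klrb1 genes, close paralogs between which reads could be split, at 156 and 176 CPM in controls and 168 and 202 CPM with high fiber (0.16 ± 0.23, edgeR adjusted p = 0.910), while the other 4 had at most 39 counts in any library. Cd27, a costimulatory receptor, was at 238 and 178 CPM in controls and 131 and 104 CPM with high fiber (-0.82 ± 0.26, edgeR adjusted p = 0.456). Cd226, an activating receptor, was at 90.6, 80.2, 75.0 and 49.7 CPM in the same order of libraries (-0.45 ± 0.30). Of 8 tested genes 6 were negative, with a median of -0.63, and for 4 both high-fiber mice were below both controls, where 19.6% of all tested genes had that order.

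Cytotoxic effectors besides the members were few. Of 12 measured, 6 had 0 counts in all 4 libraries (Gzmc, Gzmd, Gzme, Gzmf, Gzmg and Gzmk). Fasl, the death receptor ligand, had 218 and 49 counts in control mice 1 and 2 and 0 counts in both high-fiber mice. With counts pooled over the mice of each diet, Fasl was at least 85.6-fold lower with high fiber, set against 3 counts. That bound rests mostly on control mouse 1, at 7.22 CPM. For control mouse 2 alone, at 2.33 CPM, it would be smaller. Fasl was not called by edgeR (adjusted p = 0.447) but was called by DESeq2 (adjusted p = 0.00215). Control mouse 1 held most Fasl, as it did for Tbx21 and Ncr1. Lta, the lymphotoxin gene, was at 59.0 and 51.9 CPM in controls and 28.6 and 41.1 CPM with high fiber (-0.69 ± 0.32), and Ctsw, a granule cathepsin, at 23.7, 27.1, 10.98 and 19.9 CPM (-0.75 ± 0.46). Tnf was at 32.4 and 89.0 CPM and at 28.1 and 36.3 CPM, with overlapping groups (-0.90 ± 0.51). Tnfsf10, the TRAIL ligand gene, had the opposite order, at 8.81 and 17.6 CPM in controls and 32.7 and 22.9 CPM with high fiber (1.15 ± 0.50, edgeR adjusted p = 0.596). Of the 5 tested genes 4 were negative and 1 positive. edgeR called 0 of the 5, whose median was -0.75. Fasl was the lowest of the 5 as fitted and at its bound, so its exact value cannot move that median.

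The machinery that fills and releases granules was present, with mostly positive differences that were not called. Of 15 genes measured, 14 had at least 1 CPM in every library. Srgn, the proteoglycan that packs granule proteins, was at 1819 and 2067 CPM in controls and 2362 and 2507 CPM with high fiber (0.33 ± 0.21, edgeR adjusted p = 0.743). Lamp1, a membrane protein of lysosomes and granules, was at 292 and 193 CPM and at 384 and 305 CPM (0.51 ± 0.27), and Vamp8, a fusion protein, at 219 to 343 CPM with overlapping groups. Of 14 tested genes 11 were positive and 3 negative (median 0.43), and 9 were higher in both high-fiber mice than in either control, where 18.5% of all tested genes had that order. edgeR and DESeq2 called 0 of the 14, where they called 0.0338% and 1.84% of all genes, and 3 were higher at an unadjusted p under 0.05, where 4.7% of all tested genes were.

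Among surface and homing genes, Cxcr6, a chemokine receptor of tissue lymphocytes, was at 3833 and 3332 CPM in controls and 4630 and 4744 CPM with high fiber (0.39 ± 0.22, edgeR adjusted p = 0.702). Cd69, an early activation and residency receptor, was at 3327 and 3778 CPM and at 1703 and 2691 CPM (-0.69 ± 0.28, edgeR adjusted p = 0.545). Cd200r1, a receptor that ILC1s carry, was at 365 to 436 CPM with overlapping groups. The receptor adaptors and signalling genes had a median of 0.024 (7 positive, 6 negative), and Hcst, Zap70 and Sh2d2a were the most abundant per kilobase. Of 5 measured NKG2D ligand genes, Raet1d, Raet1e and H60c had 0 counts in all 4 libraries, while H60b and Ulbp1 reached at most 2.49 and 4.30 CPM.

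**Figure D4:**
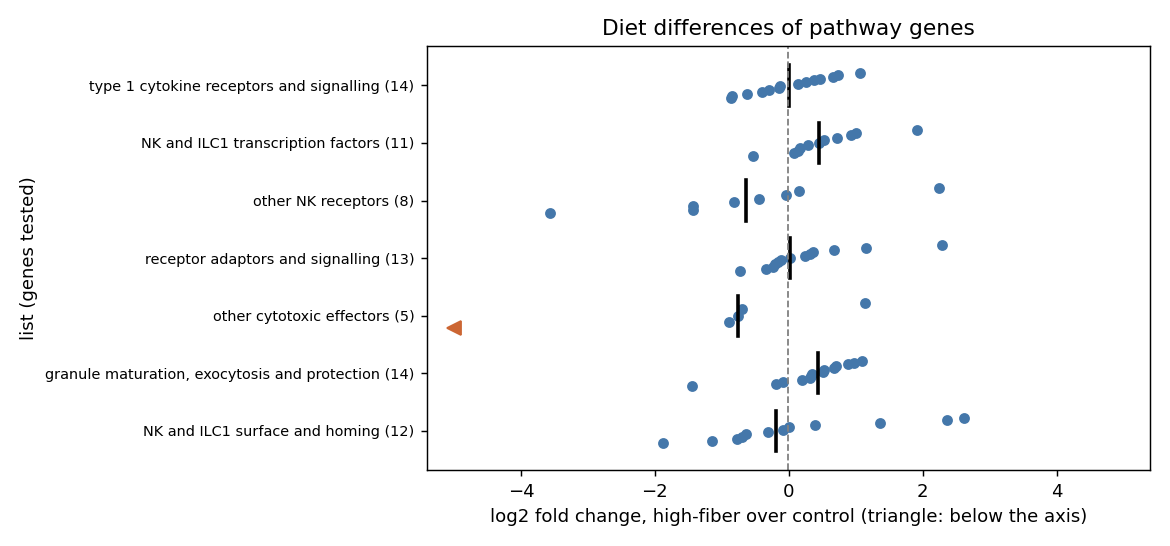
Each dot is a tested gene of 1 of 7 pathway lists, placed by its log2 fold change (high-fiber over control). Black bars are list medians, the dashed line is the median over all tested genes (-0.016), and the triangle is Fasl, whose fitted value lies below the axis. Medians run from -0.75 for the 5 cytotoxic effectors to 0.45 for the 11 transcription factors.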

How the data were processed

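RNA was sequenced from sorted colonic ILC2s of 4 mice with a SMARTer ultra-low-input kit, per the labels' protocols. The submitters' processing notes list CASAVA 1.8.2, STAR 2.3.0 and the mm10 build without saying what each did. The sources used here give no counting program or strand setting. The authors deposited whole-number read counts per NCBI gene, not normalized, and each of the 4 columns was matched to a mouse (0 columns unmatched).

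RefSeq (GRCm38.p6) gave a symbol for 25275 of 27179 rows, and exon lengths came from GENCODE M21 for 21572. In R 4.3.3 and edgeR 4.0.16, filterByExpr left 11841 genes, scaled by TMM. The design held the diet, with glmQLFit (legacy=FALSE), glmQLFTest and Benjamini-Hochberg adjustment at 0.05, checked on simulated data, where DESeq2 called more of the unchanged genes than edgeR did. The simulated counts took the spread of each gene from edgeR's estimate, so they cannot decide between the tools on the real counts. Each standard error is the fold change over the root of F. Alternatives were other scalings and filters, DESeq2 1.42.0, voom (limma 3.58.1), the legacy and robust settings, a replicate block and leaving out each library. Named were all members, the 3 most abundant genes per list, genes past the threshold, every NK defining gene and Cdh1, and others are examples chosen after their values were seen. Members and lists were chosen with earlier results of these data known. Limits on counts of 0 cover counting error only.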

Additional observations from a re-analysis of the deposited data

How the results depend on the processing

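Of the 8 tested members, 0 were called in each of the 14 alternatives, although the filter of 5 CPM left some of them untested. Over all genes the 4 calls became 0 with no filter on low counts, 9 with a filter of 5 CPM in 2 libraries, 234 with DESeq2, 0 with limma-voom, 0 with legacy=TRUE and 0 with the replicate block, and 0 to 1 without 1 library. The 80 pathway genes went from 0 to 4 calls with DESeq2. The cause was not tested. The sample titles do not say what libraries with the same replicate number share. Total counts were 30406730 and 29263068 in control and high-fiber mouse 1, and 20253987 and 20750263 in control and high-fiber mouse 2. Over all tested genes the correlation of same-number deviations was 0.0809, but some members divided by number. Ncr1 had 330 and 40 counts in the mice numbered 1 and 0 in both numbered 2. Gzmb had 0 and 1 counts in the mice numbered 1 and 45 and 196 in those numbered 2. Klrg1 and Nkg7 were lower in both mice numbered 1, while Tbx21, Ifng, Prf1 and Klrk1 overlapped. With the block the standard error of Tbx21 went from 1.38 to 0.84 and that of Prf1 from 0.97 to 1.16. The block called 0 members, but also 0 of all genes. Ifng and Klrk1 kept their sign in 14 of 14 alternatives and Tbx21 in 13 of 13, where the filter of 5 CPM removed it. Leaving out 1 library moved the log2 fold change from -0.56 to -0.20 for Klrk1, -10.9 to -1.57 for Tbx21, -0.37 to 0.0083 for Klrg1, -0.50 to 0.32 for Nkg7, -11.8 to 0.21 for Prf1, -10.2 to 7.24 for Ncr1 and -4.51 to 9.81 for Gzmb, where values beyond 5 in size come from a group left with 0 counts and depend on the prior count. The 4 members at 1 CPM or more in every library stayed 4 at 0.5 and 5 CPM and with RLE or no scaling, and were 4 to 6 without 1 library. The depth limits a count of 0 to 0.0993 to 0.147 CPM.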

Other observations

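Ifng and the type 2 cytokine gene Il13 lay at similar levels in these ILC2 sorts, although Il5 was far above both. Per kilobase of exon, the ratio of Ifng to Il13 was 1.42 and 2.25 in control mice 1 and 2 and 0.423 and 0.779 in high-fiber mice 1 and 2. Ifng was thus above Il13 in both control mice and below it in both high-fiber mice. Il13 itself was at 13.5 and 11.4 CPM in controls and 18.2 and 9.62 CPM with high fiber, with overlapping groups. The ratio of Ifng to Il5 was 0.00804 and 0.0128 in the control and 0.00166 and 0.00251 in the high-fiber mice. These ratios do not depend on the scaling between libraries. They were formed after the values were seen and were not tested.

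Mast cell and basophil genes, which would accompany another granule-bearing cell, had few counts, with 7 of 9 at 0 counts in all 4 libraries and a summed level of 2.45 and 1.95 CPM in the control and 1.11 and 0 CPM in the high-fiber mice. Cpa3 had 40 and 21 counts in control mice 1 and 2 and 0 in both high-fiber mice, and Fcer1a had 34, 20, 32 and 0 counts.

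B and plasma cell markers were mostly higher in both high-fiber mice than in either control, in the same libraries in which Ifng and Tbx21 were lower. Igkc, an antibody light chain gene, was at 37.4 and 4.15 CPM in controls and 112 and 458 CPM with high fiber (3.68 ± 0.93, edgeR adjusted p = 0.447). Igha, the IgA heavy chain gene, was at 60.4 and 3.29 CPM in controls and 101 and 424 CPM with high fiber (2.96 ± 1.03). Jchain, which joins IgA into dimers, was at 33.4 and 4.05 CPM in controls and 87.98 and 286 CPM with high fiber (3.21 ± 0.84). Cd79b was at 24.0 and 27.5 CPM and at 39.4 and 57.5 CPM, and Cd79a reached at most 1.18 CPM. Of the 6 tested markers, 5 were higher in both high-fiber mice (18.5% of all tested genes had that order) and 4 were higher at an unadjusted p under 0.05 (4.7% of all tested genes), with a median of 2.32. Ighm, at 418 to 615 CPM with overlapping groups, was the other one. edgeR and DESeq2 called 0 of the 6. The summed level of the 9 markers was 637 and 655 CPM in the control and 760 and 1774 CPM in the high-fiber mice. High-fiber mouse 2, with the highest sum, was also the library with 0 Prf1 and most Gzmb counts. The part of these cells in the member values was not tested.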
